A study of Mus musculus with 45 samples.

Results

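The endoplasmic reticulum (ER) folding and degradation genes are a set of 39 listed mouse genes that fold secreted proteins or remove the misfolded ones. They were found by gene symbol among the 18180 genes of the array table, and 38 of the 39 had a value. Fkbp2 was not found under its symbol. The 38 genes comprised 17 chaperones and their partners, 8 disulfide isomerases, 9 genes of ER-associated degradation and 4 genes grouped as sensors of the unfolded protein response. The sensor group held the sensor genes Atf6, Ern1 and Eif2ak3, and Xbp1, a transcription factor that acts downstream of a sensor. The 39 listed genes were chosen by function, not by their values, although the choice was made with earlier results of these data known.

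The study compared liver responses to acetaminophen (APAP), a painkiller whose overdose injures hepatocytes around the central vein. Livers of male C57Bl/6J mice, 8 weeks old, were hybridized to Affymetrix mouse expression arrays, with 5 mice in each of 9 groups and 45 arrays in all. APAP mice received 300 mg/kg in 1% hydroxyethylcellulose by oral gavage, vehicle mice received the carrier alone, and groups of each were killed at 3, 6, 9 or 24 h. An untreated group was killed at 0 h. All mice had been fasted for 16 h, and food was returned after dosing, so vehicle and untreated mice differed in gavage, feeding and time of day, which cannot be told apart. Each array held RNA of whole liver, in which fewer cells of a type and less RNA per cell cannot be told apart.

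Proteins that enter the ER are folded by lumenal chaperones, given disulfide bonds by protein disulfide isomerases and, when folding fails, passed back to the cytosol for destruction by the proteasome. When misfolded protein accumulates, 3 membrane sensors, IRE1 (Ern1), ATF6 and PERK (Eif2ak3), start the unfolded protein response. IRE1 splices the mRNA of the transcription factor XBP1, and ATF6 is cleaved to an active factor. PERK slows translation and raises ATF4 and CHOP. Hepatocytes secrete most plasma proteins and carry abundant ER, and in rodent liver this pathway is known to follow feeding and fasting as well as chemical stress.

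XBP1 and ATF6 are known to act through short promoter elements, so the promoters of the genes were searched for them. The sequences are those of RefSeq on build GRCm38.p6, as windows of 300 bases holding 250 bases before and 50 after the start of a gene, and 34 of the 39 genes had at least 1 window. Hspa13, Hyou1, Manf, Derl1 and Atf6 had none. The ER stress response element (ERSE, CCAAT and CCACG with any 9 bases between them, either strand) occurred in 9 of the 34 genes (26.5%), against 37 of 27025 genes with a window (0.137%). The ERSE-II element (ATTGG and CCACG with 1 base between them, either strand) occurred in 2 (5.88%), against 12 of 27025 (0.0444%). The unfolded protein response element (UPRE, TGACGTGG, either strand) occurred in Txndc5 and Txndc11 (5.88%), against 193 of 27025 (0.714%). All 3 elements hold the letters CCACG on 1 strand, but no gene of the set held more than 1 kind. The genes were listed by function in the pathway of XBP1 and ATF6. Shares above those of all genes were therefore likely beforehand and test nothing. A match describes letters only, and its absence says only that these letters are not in the window. The ERSE matches are shown because they let the members be compared base by base. They are written in the direction of the element with its fixed letters in capitals, and Hsp90b1, which encodes the ER form of HSP90, had 2.
Calr, chr8:84847075-84847093, gene on the - strand: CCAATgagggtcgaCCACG
Canx, chr11:50325800-50325818, gene on the - strand: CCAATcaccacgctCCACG
Creld2, chr15:88819520-88819538, gene on the + strand: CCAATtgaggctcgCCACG
Derl3, chr10:75893242-75893260, gene on the + strand: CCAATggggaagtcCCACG
Dnajc3, chr14:118937827-118937845, gene on the + strand: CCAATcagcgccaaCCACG
Hsp90b1, chr10:86705533-86705551, gene on the - strand: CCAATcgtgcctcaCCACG
Hsp90b1, chr10:86705638-86705656, gene on the - strand: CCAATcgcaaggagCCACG
Hspa5, chr2:34772025-34772043, gene on the + strand: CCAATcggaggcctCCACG
Pdia6, chr12:17266491-17266509, gene on the + strand: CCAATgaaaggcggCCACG
Syvn1, chr19:6046532-6046550, gene on the + strand: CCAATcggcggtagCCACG
Counted from the start of the gene, the first base of these matches lay between -212 in Hsp90b1 and -44 in Syvn1, and at -65 in Hspa5. Of the 9 genes, 5 were lower after APAP than after vehicle at 3 h and 5 at 6 h, and 7 were higher at 24 h, by the call rule given below. Of the 24 measured genes with a window and no ERSE, 7 were lower at 3 h and 9 at 6 h, and 8 were higher at 24 h. Among all genes 2.34% and 3.03% were lower at 3 and 6 h and 2.86% were higher at 24 h, and the 9 and the 24 genes were not tested against each other. The 2 ERSE-II matches belonged to the co-chaperone gene Dnajb11 and to Herpud1, a membrane protein of the degradation complex.
Dnajb11, chr16:22857852-22857862, gene on the + strand: ATTGGcCCACG
Herpud1, chr8:94386377-94386387, gene on the + strand: ATTGGgCCACG
The 250 bases before the start are shown for Hspa5 and Creld2, which carry an ERSE, and for Sdf2l1, which had the largest early change of all 38 genes. Capitals mark the ERSE, which reads on the opposite strand in Creld2. The Sdf2l1 window held none of the 3 sets of letters. The windows lie at chr2:34771840-34772089 (+ strand) for Hspa5, at chr15:88819396-88819645 (+ strand) for Creld2 and at chr16:17132384-17132633 (- strand) for Sdf2l1.
Hspa5: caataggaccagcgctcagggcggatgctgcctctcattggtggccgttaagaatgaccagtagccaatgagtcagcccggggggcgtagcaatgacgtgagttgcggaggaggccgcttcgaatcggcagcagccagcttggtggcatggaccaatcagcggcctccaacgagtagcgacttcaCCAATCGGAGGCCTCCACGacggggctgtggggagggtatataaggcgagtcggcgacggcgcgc
Creld2: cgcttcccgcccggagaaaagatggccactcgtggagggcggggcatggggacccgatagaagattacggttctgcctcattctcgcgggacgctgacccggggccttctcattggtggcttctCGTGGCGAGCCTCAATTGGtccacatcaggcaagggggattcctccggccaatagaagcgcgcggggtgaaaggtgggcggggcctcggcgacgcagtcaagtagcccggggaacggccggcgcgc
Sdf2l1: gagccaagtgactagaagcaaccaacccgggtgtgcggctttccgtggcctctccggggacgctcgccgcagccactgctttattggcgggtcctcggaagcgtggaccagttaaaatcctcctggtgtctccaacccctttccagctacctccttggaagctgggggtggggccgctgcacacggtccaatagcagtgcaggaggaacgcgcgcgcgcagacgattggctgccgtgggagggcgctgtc

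Across the arrays the log2 values made by the authors with RMA, which removes background, brings arrays to 1 distribution and merges the probes of a gene, ran from 3.38 to 15.04. The medians of the arrays lay between 7.59 and 7.66. Values of different genes come from different probes and are not compared with each other. Hepatocyte markers checked the tissue label, and the mean of 6 of them lay between 13.94 and 14.21 in all arrays, with none of the 6 changed by the rule below at any time (limma, with 2, 1, 0 and 1 of them at an unadjusted p under 0.05 at 3, 6, 9 and 24 h). Each APAP group was compared with the vehicle group of its time with limma (n = 5 mice each), using Benjamini-Hochberg adjusted p values over the 18180 genes. A gene is called higher or lower where the adjusted p was under 0.05 and the change was at least 1.5-fold, which is 0.585 on the log2 scale. Only Eif2ak3 had group means under the lower quartile of the arrays, which lay between 6.23 and 6.43.

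APAP-treated livers held less mRNA for ER folding and degradation than vehicle livers at 3 and 6 h and more at 24 h, with no common direction at 9 h. At 3 h, 14 of the 38 genes were lower after APAP and 0 were higher, against 2.34% of all genes lower and 1.68% higher. At 6 h, 16 were lower and 1 was higher, against 3.03% and 2.29%. At 9 h, 1 was lower and 1 higher, against 2.05% and 2.49%. At 24 h, 17 were higher and 0 were lower, against 2.86% and 1.82%. The 38 genes had a median difference of -0.42, -0.48, -0.03 and 0.54 on the log2 scale at 3, 6, 9 and 24 h, beside 0.02, 0.01, -0.03 and -0.05 for all genes. The adjusted p alone was under 0.05 for 2 higher and 30 lower members at 3 h, for 4 and 26 at 6 h, for 8 and 12 at 9 h, and for 30 and 0 at 24 h, against 8.13% and 14.2%, 10.4% and 17%, 13.4% and 15%, and 13.4% and 16.1% of all genes. All 5 APAP livers were above all 5 vehicle livers for 2, 4, 6 and 27 members and below them for 21, 22, 7 and 0 at the 4 times, against 6.29%, 7.87%, 10.1% and 8.99% above and 9.79%, 13.6%, 11.1% and 11.3% below among all genes. By limma's unadjusted p under 0.05, 2 genes were higher and 32 lower at 3 h, and 33 were higher and 0 lower at 24 h.

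**Figure D1:**
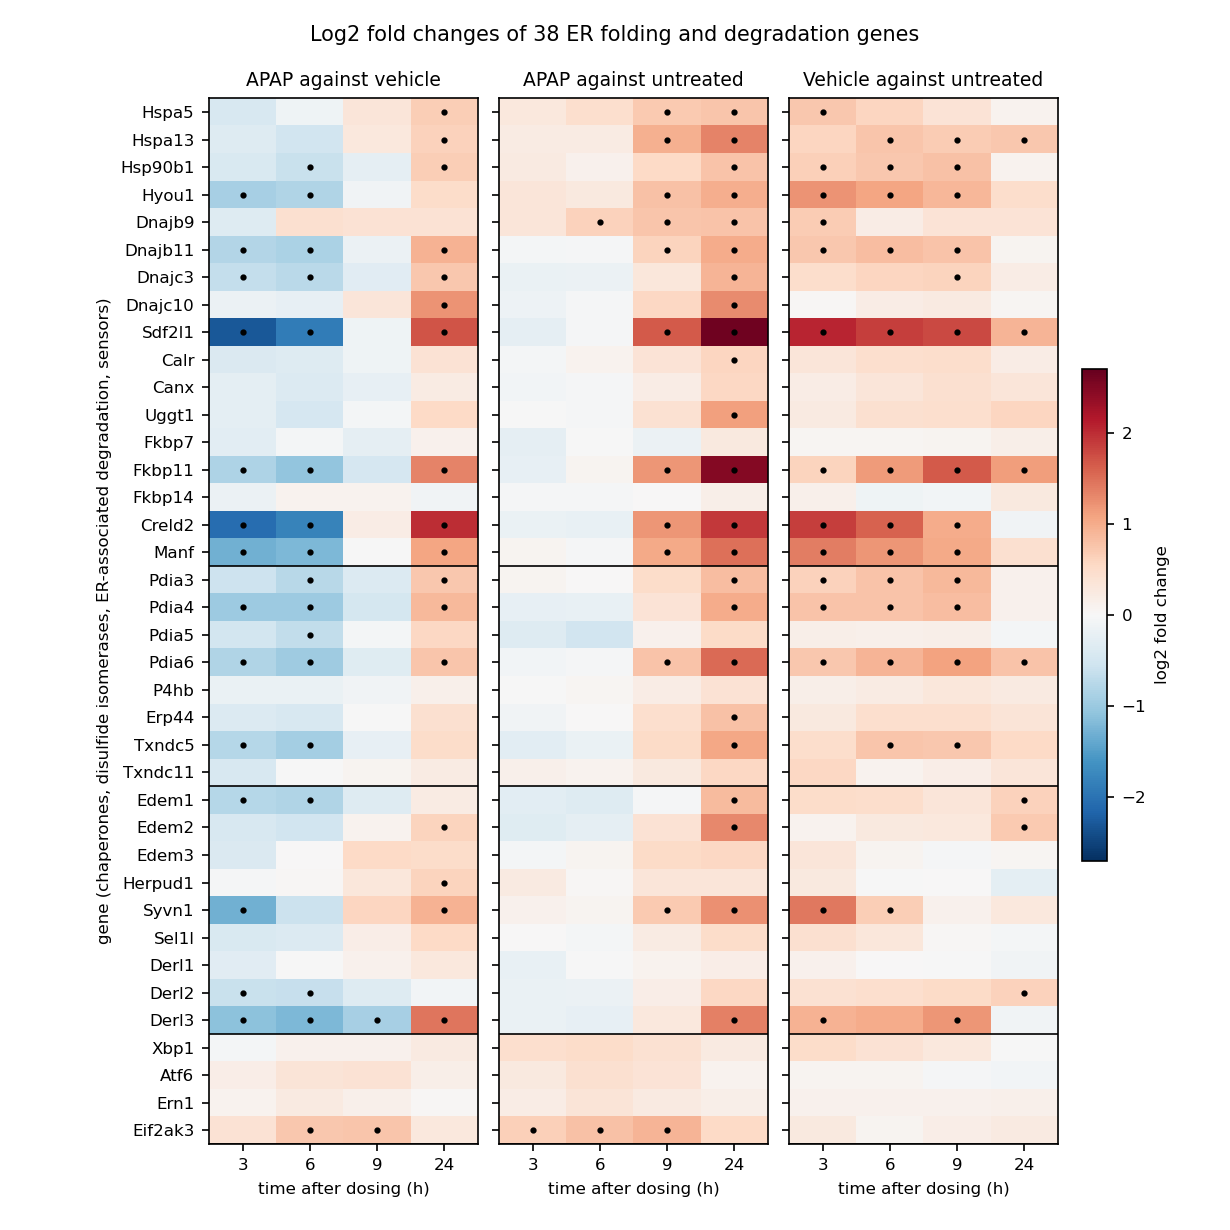
Log2 fold changes of 38 genes (rows, in 4 classes separated by lines) at 3, 6, 9 and 24 h, for APAP against vehicle, APAP against untreated and vehicle against untreated livers (5 mice per group). Red is higher and blue lower in the group named first, dots mark genes at an adjusted p under 0.05 and at least 1.5-fold, and the first panel turns over between 3 h, with 14 genes lower, and 24 h, with 17 genes higher.

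Of the 17 genes lower at 3 or 6 h, 13 were lower at both times and 12 were also higher at 24 h. Those 12 were the chaperone genes Hsp90b1, Dnajb11, Dnajc3, Sdf2l1, Fkbp11, Creld2 and Manf, the isomerase genes Pdia3, Pdia4 and Pdia6, and the degradation genes Syvn1 and Derl3. The other 5, Hyou1, Pdia5, Txndc5, Edem1 and Derl2, were called lower early and not called at 24 h, when they differed by 0.49, 0.55, 0.50, 0.23 and -0.06 on the log2 scale. Hspa5, Hspa13, Dnajc10, Edem2 and Herpud1 were called only at 24 h. In all, 15 of the genes were called at no time against vehicle.

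Among the chaperones and their partners, 7, 8 and 0 of 17 were lower after APAP at 3, 6 and 9 h, and 10 were higher at 24 h. Sdf2l1, a stress-induced partner of ER co-chaperones, had the largest early decrease. At 3 h its log2 values were 9.04, 9.75, 9.27, 9.37 and 9.34 in APAP livers and 11.94, 11.05, 11.28, 11.91 and 12.05 in vehicle livers. All 5 APAP livers lay below all 5 vehicle livers, a difference of -2.29 ± 0.19 on the log2 scale (SE, 4.90-fold lower, limma adjusted p = 4.55e-06). At 24 h the order was turned round, with 12.31, 11.69, 12.55, 12.18 and 12.31 in APAP livers and 9.96, 10.40, 10.73, 10.95 and 10.47 in vehicle livers. The groups again did not overlap, and Sdf2l1 was 3.27-fold higher after APAP (log2 fold change 1.71 ± 0.19, limma adjusted p = 0.000346). The untreated livers held 9.32, 9.90, 9.32, 10.01 and 9.40, within the range of the APAP livers at 6 h.

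Creld2, an ER protein with disulfide isomerase activity that is induced with the chaperones, followed the same course. Its log2 values at 3 h were 10.55, 11.18, 10.72, 11.19 and 10.84 in APAP livers and 13.38, 12.32, 12.44, 13.19 and 13.44 in vehicle livers, which did not overlap (4.17-fold lower, limma adjusted p = 3.49e-05). At 24 h they were 13.05, 12.32, 13.47, 13.02 and 13.10 in APAP livers and 10.64, 10.23, 11.13, 11.57 and 11.40 in vehicle livers, again apart (3.99-fold higher, limma adjusted p = 0.000854). The lowest APAP liver at 24 h, replicate 2, still lay above the highest vehicle liver. Manf, a secreted protein of the ER lumen that binds the chaperone BiP, held 11.32, 11.81, 11.45, 11.79 and 11.30 in APAP livers and 12.99, 12.48, 12.62, 12.92 and 13.16 in vehicle livers at 3 h. All APAP livers were lower (2.47-fold, limma adjusted p = 3.62e-05), and by 9 h the difference was -0.00 ± 0.11 on the log2 scale. At 24 h Manf held 12.93, 12.66, 13.22, 12.88 and 13.03 in APAP livers and 11.80, 11.54, 11.88, 12.26 and 11.94 in vehicle livers, all APAP livers being higher (2.09-fold, limma adjusted p = 0.000582).

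Fkbp11, a prolyl isomerase of the ER, had its largest early difference at 6 h. It held 8.47, 8.77, 8.59, 8.29 and 8.47 in APAP livers and 9.68, 9.85, 9.62, 9.34 and 9.42 in vehicle livers, with no overlap (2.09-fold lower, limma adjusted p = 5.63e-05). At 24 h it held 10.74, 10.66, 11.30, 10.85 and 11.04 in APAP livers and 9.39, 9.63, 9.61, 9.67 and 9.59 in vehicle livers, again without overlap (2.54-fold higher, limma adjusted p = 6.89e-05). Against untreated livers Fkbp11 was 5.59-fold higher at 24 h after APAP, second among the 38 genes only to Sdf2l1 at 6.14-fold.

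Hspa5 encodes BiP, the main HSP70 chaperone of the ER, and at 3, 6 and 24 h its log2 differences were smaller in size than those of Sdf2l1, Creld2 and Manf. At 3 h its log2 values were 13.14, 13.54, 13.27, 13.36 and 13.29 in APAP livers and 13.92, 13.49, 13.62, 13.85 and 13.84 in vehicle livers. The groups overlapped at APAP replicate 2 and vehicle replicate 2, and the difference of -0.43 ± 0.09 (limma adjusted p = 0.0052) was under 1.5-fold. At 24 h Hspa5 held 13.82, 13.60, 13.90, 13.71 and 13.84 in APAP livers and 13.05, 12.96, 13.09, 13.35 and 13.12 in vehicle livers, all APAP livers being higher (1.58-fold, limma adjusted p = 0.000578). Of the co-chaperones that work with BiP, Dnajb11 and Dnajc3 were lower at 3 and 6 h and higher at 24 h, with log2 fold changes between -0.86 and 0.93. Dnajc10, a co-chaperone that reduces disulfide bonds, had early differences of -0.17 at 3 h and -0.22 at 6 h and was 2.32-fold higher at 24 h (limma adjusted p = 0.000174). Hyou1, a large HSP70 relative that exchanges nucleotide on BiP, was lower at 3 h (-0.89) and 6 h (-0.80), and its groups overlapped at both times. Dnajb9, a BiP co-chaperone, and the lectin chaperone genes Calr and Canx, with Uggt1, the glucosyltransferase that tests folding for them, were not called at any time, and neither were the prolyl isomerases Fkbp7 and Fkbp14. The largest difference among these 6 was 0.53, for Uggt1 at 24 h.

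**Figure D2:**
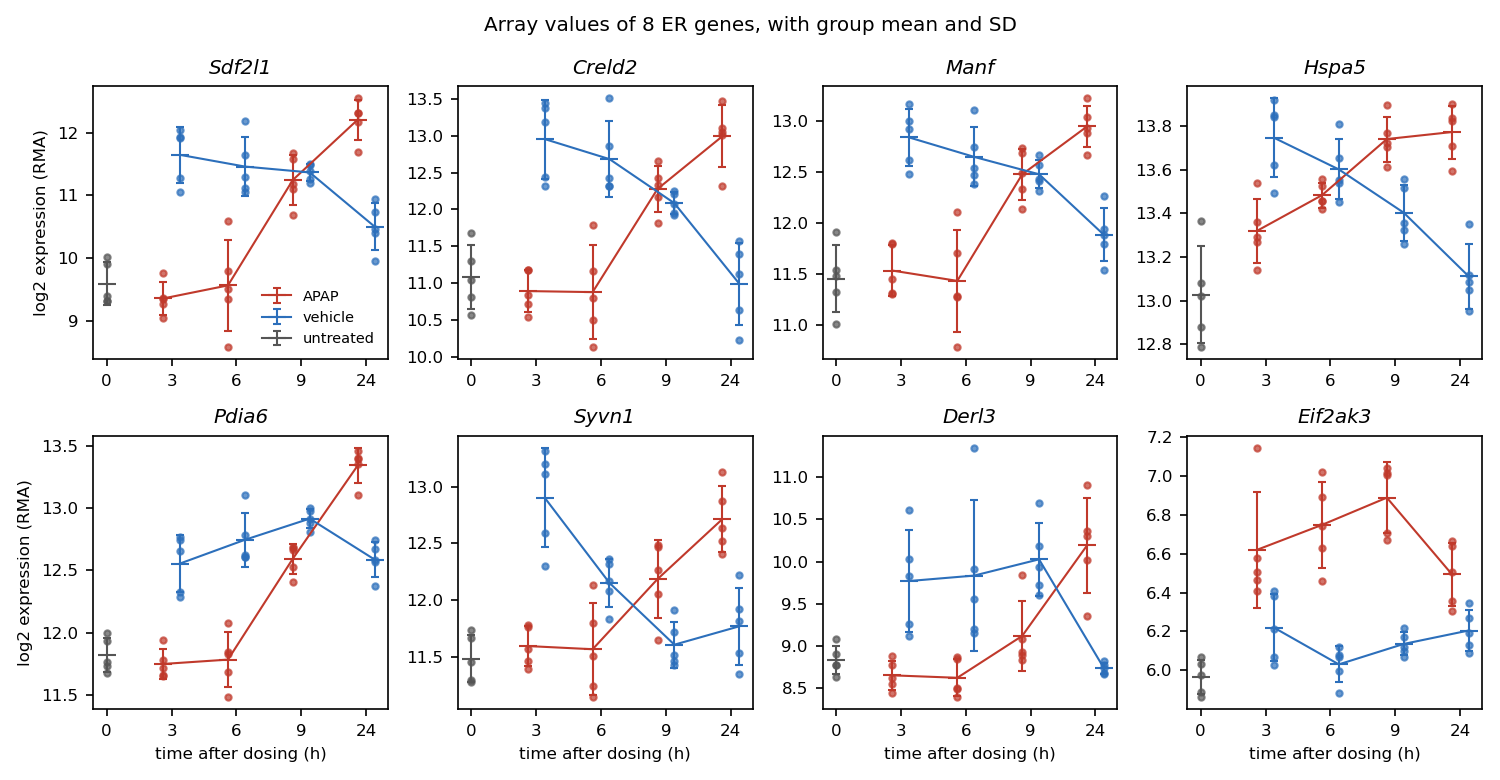
Log2 expression (RMA, vertical axis) of 8 genes against time after dosing (categories, not to scale), with 1 point per mouse and the mean ± SD of 5 mice for APAP (red), vehicle (blue) and untreated (grey, 0 h) livers. For 7 of the genes the red and blue lines cross between 3 h and 24 h, as for Sdf2l1, which differed by -2.29 at 3 h and by 1.71 at 24 h, while the mean of Eif2ak3 was higher after APAP at every time.

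All 8 disulfide isomerases were lower after APAP at 3 h at an adjusted p under 0.05 by limma, where 14.2% of all genes were, and 3 of the 8 also by at least 1.5-fold. At 6 h, 5 of 8 were lower, and at 24 h 3 of 8 were higher. Pdia4, an isomerase with several thioredoxin domains, held 9.48, 9.58, 9.48, 9.40 and 9.56 in APAP livers and 10.76, 10.13, 10.31, 10.67 and 10.56 in vehicle livers at 3 h. The APAP livers lay within a narrow range below every vehicle liver (1.98-fold lower, limma adjusted p = 3.45e-05). At 24 h Pdia4 held 10.55, 10.39, 11.01, 10.75 and 10.88 in APAP livers and 9.73, 9.80, 9.96, 10.01 and 9.73 in vehicle livers, with every APAP liver higher (1.83-fold, limma adjusted p = 0.000737).

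Pdia6, an isomerase that also attenuates IRE1 signalling, held 11.85, 12.08, 11.83, 11.49 and 11.69 in APAP livers and 12.78, 13.11, 12.62, 12.60 and 12.61 in vehicle livers at 6 h, when its early difference was largest. The groups were apart (1.94-fold lower, limma adjusted p = 0.000211). At 24 h Pdia6 held 13.39, 13.11, 13.46, 13.40 and 13.35 in APAP livers and 12.37, 12.57, 12.67, 12.74 and 12.58 in vehicle livers, with every APAP liver higher (1.69-fold, limma adjusted p = 0.000327). Txndc5, a thioredoxin-domain isomerase, held 10.79, 11.11, 11.19, 10.72 and 10.60 in APAP livers and 11.82, 11.86, 11.81, 11.75 and 11.77 in vehicle livers at 6 h. Its vehicle livers spanned little more than 0.1 log2 units and all lay above the APAP livers (1.89-fold lower, limma adjusted p = 1e-04). At 24 h Txndc5 held 11.95, 12.13, 12.15, 12.09 and 12.16 in APAP livers and 11.63, 11.51, 11.71, 11.62 and 11.53 in vehicle livers, apart but under 1.5-fold (1.41-fold higher, limma adjusted p = 0.000446). Pdia3, the isomerase that works with calreticulin and calnexin, was lower at 6 h (-0.75) and higher at 24 h (0.73), and Pdia5 was lower at 6 h (-0.66). P4hb, which encodes protein disulfide isomerase itself, stayed between -0.17 and 0.14 and was called at no time, as were Erp44 and Txndc11.

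Among the 9 degradation genes, 4, 3 and 1 were lower after APAP at 3, 6 and 9 h, and 4 were higher at 24 h. Syvn1 encodes HRD1, the ubiquitin ligase of the pathway, and held 11.39, 11.77, 11.47, 11.78 and 11.57 in APAP livers and 13.31, 12.30, 12.60, 13.20 and 13.11 in vehicle livers at 3 h. Each APAP liver was lower than each vehicle liver (2.48-fold, limma adjusted p = 0.000176). At 6 h the difference was -0.58, just short of 1.5-fold, and at 9 h it was 0.58 in the other direction, also just short. At 24 h Syvn1 held 12.88, 12.63, 13.13, 12.41 and 12.53 in APAP livers and 11.54, 11.35, 11.82, 12.22 and 11.92 in vehicle livers (1.92-fold higher, limma adjusted p = 0.00398) and the groups did not overlap. Sel1l, the partner that holds HRD1 in its complex, was called at no time.

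Derl3 is a membrane protein of the retrotranslocation channel. At 3 h it held 8.45, 8.62, 8.56, 8.88 and 8.77 in APAP livers and 10.04, 9.12, 9.26, 9.82 and 10.61 in vehicle livers, with no overlap (2.16-fold lower, limma adjusted p = 0.00376). At 9 h it was still lower (1.87-fold, limma adjusted p = 0.00884), as the only member so called, although APAP replicate 5 at 9.85 lay among the vehicle livers. At 24 h Derl3 held 10.02, 9.36, 10.90, 10.36 and 10.31 in APAP livers and 8.82, 8.74, 8.69, 8.77 and 8.67 in vehicle livers (2.73-fold higher, limma adjusted p = 0.00158). The vehicle livers lay close together, and all APAP livers were above them. Its relative Derl2 was lower at 3 h (-0.61) and 6 h (-0.62) and differed by -0.06 at 24 h, and Derl1 was called at no time.

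Edem1 encodes a lectin that hands misfolded glycoproteins to degradation. It held 10.68, 10.91, 10.86, 10.47 and 10.76 in APAP livers and 11.55, 11.75, 11.66, 11.38 and 11.44 in vehicle livers at 6 h, with no overlap (1.77-fold lower, limma adjusted p = 0.000107). At 24 h it held 11.72, 12.06, 12.27, 11.83 and 11.82 in APAP livers and 11.67, 11.71, 11.67, 11.83 and 11.66 in vehicle livers, which overlapped (0.23 ± 0.10, limma adjusted p = 0.088). Edem2 was higher at 24 h (0.60) and Edem3 was called at no time. Herpud1, which brings substrates to the HRD1 complex, differed by -0.02 and 0.04 at 3 and 6 h and was higher at 24 h (0.60).

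The 4 sensors did not share the early decrease. None was lower at an adjusted p under 0.05 at any time against vehicle. Eif2ak3 (PERK) was higher after APAP at 6 and 9 h, the only member so called. At 6 h it held 6.46, 6.89, 7.02, 6.63 and 6.74 in APAP livers and 5.997, 6.07, 6.12, 5.89 and 6.08 in vehicle livers, with no overlap (1.644-fold, limma adjusted p = 0.000302). At 9 h it held 7.02, 7.04, 6.67, 6.71 and 7.003 in APAP livers and 6.22, 6.12, 6.10, 6.17 and 6.07 in vehicle livers, again apart (1.68-fold, limma adjusted p = 4.11e-05). Atf6 was higher at 3, 6 and 9 h by 0.19, 0.35 and 0.39 on the log2 scale, each at an adjusted p under 0.05 by limma and under 1.5-fold, and its groups did not overlap at those times. Ern1 (IRE1) differed by 0.24 at 6 h (limma adjusted p = 0.0172), also under 1.5-fold.

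Total Xbp1 mRNA held 12.95, 13.30, 13.09, 13.12 and 13.31 in APAP livers and 13.15, 13.07, 13.24, 13.29 and 13.26 in vehicle livers at 3 h. The groups overlapped, with a difference of -0.05 ± 0.07 (limma adjusted p = 0.701). At 24 h Xbp1 held 13.20, 12.81, 13.06, 12.80 and 12.83 in APAP livers and 12.71, 12.66, 12.56, 12.72 and 12.84 in vehicle livers, and the difference was 0.24 ± 0.09 (limma adjusted p = 0.0526). The untreated livers held 12.64, 12.76, 12.58, 12.85 and 12.69, below every APAP and vehicle liver at 3 h. The array value does not separate spliced from unspliced Xbp1.

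At 3 and 6 h the median of the 38 genes lay above the untreated level in vehicle livers and near it in APAP livers, whereas the median of the 4 sensors averaged 0.356 and 0.490 above it in APAP livers and 0.196 and 0.134 in vehicle livers. Against untreated livers, 14, 13, 14 and 7 of the 38 genes were higher in vehicle livers at 3, 6, 9 and 24 h, where 1.14%, 1.71%, 2.03% and 2.31% of all genes were. In APAP livers 1, 2, 12 and 23 were higher at the same times, where 1.69%, 2.49%, 3.69% and 4.99% of all genes were. No member was called lower than in untreated livers, where 1.29%, 1.77%, 2.62% and 3.14% of all genes were lower in APAP livers and 0.853%, 1.19%, 1.84% and 2.09% in vehicle livers. Without the fold minimum, 5 members at 3 h (10.8% of all genes) and 3 at 6 h (13.4%) were lower in APAP livers at an adjusted p under 0.05 by limma. At an unadjusted p under 0.05, 8, 5, 1 and 0 members were lower in APAP livers at 3, 6, 9 and 24 h, and 0, 1, 0 and 1 in vehicle livers. These comparisons share the 5 untreated livers, and the vehicle livers also serve in the comparison above. The median log2 difference of the members from untreated livers was -0.05, -0.01, 0.41 and 0.78 in APAP livers and 0.48, 0.46, 0.40 and 0.22 in vehicle livers at 3, 6, 9 and 24 h.

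Single genes are given side by side. Sdf2l1 at 3 h differed from untreated livers by -0.24 ± 0.16 in APAP livers and by 2.06 ± 0.20 in vehicle livers (SE). At 24 h the differences were 2.62 ± 0.18 in APAP livers and 0.91 ± 0.18 in vehicle livers. Creld2 at 24 h differed from untreated livers by 1.91 ± 0.23 in APAP livers and by -0.09 ± 0.25 in vehicle livers. Pdia6 at 6 h differed by -0.04 ± 0.10 in APAP livers and by 0.92 ± 0.10 in vehicle livers, and Syvn1 at 3 h by 0.11 ± 0.10 in APAP livers and by 1.42 ± 0.18 in vehicle livers. The member called higher in APAP than in untreated livers at 3 h, by both criteria, was Eif2ak3 (0.65), and those so called at 6 h were Eif2ak3 (0.78) and Dnajb9 (0.63).

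**Figure D3:**
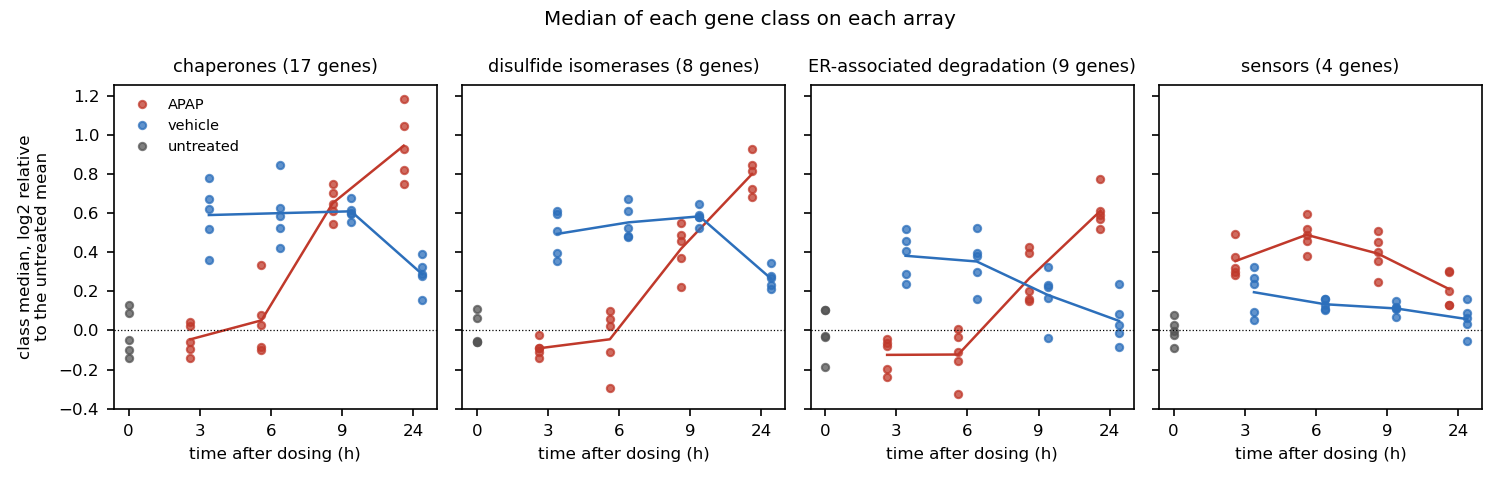
Median of each gene class on each array, as the log2 difference from the mean of the 5 untreated livers (vertical axis), against time after dosing (categories, not to scale), with 1 point per mouse and lines through the group means. The 17 chaperone genes lay between -0.142 and 0.046 in APAP livers and between 0.359 and 0.780 in vehicle livers at 3 h, and between 0.749 and 1.184 in APAP livers and between 0.156 and 0.390 in vehicle livers at 24 h, while the 4 sensors did not share the early gap.

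Over all 38 genes, the median of an APAP liver relative to the untreated mean lay between -0.127 and 0.018 at 3 h, and that of a vehicle liver between 0.286 and 0.541. At 9 h the ranges were 0.327 to 0.577 in APAP livers and 0.332 to 0.502 in vehicle livers, nearly the same. At 24 h they were 0.642 to 0.928 in APAP livers and 0.128 to 0.327 in vehicle livers. Single mice deviated in many genes at once. Replicate 3 was the highest of the 5 APAP livers at 24 h in 27 of the 38 genes, and replicate 4 was the highest vehicle liver at 24 h in 26. Among the APAP livers at 6 h, replicate 2 was highest in 22 genes and replicate 4 lowest in 19. These counts were made for the 38 genes only, so a deviation of the set and one of the whole array cannot be told apart.

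The change of the APAP effect with time was tested as an interaction term, with 40 arrays of treated and vehicle mice in 1 model. Between 24 h and 3 h the effect was higher at 24 h for 29 of the 38 genes and lower for 0, where 6.03% and 2.21% of all genes were. Between 9 h and 3 h it was higher at 9 h for 11 (2.35% of all genes) and lower for 0 (0.776%). Between 24 h and 9 h it was higher at 24 h for 14 (1.74%) and lower for 0 (1.24%). The 29 genes were 14 of 17 chaperones, 7 of 8 disulfide isomerases, 8 of 9 degradation genes and 0 of 4 sensors. The largest differences between 24 h and 3 h were 4.06 ± 0.38 for Creld2 and 4.002 ± 0.36 for Sdf2l1, and the smallest among the 13 genes given mouse by mouse, outside the sensors, was 1.01 ± 0.13 for Edem1. Derl1, Herpud1 and Txndc11 lost this call in 8, 6 and 1 of 40 omissions of a single array, each of them without APAP replicate 3 at 24 h. Syvn1 had most of its change by 9 h (1.89 between 9 h and 3 h, 0.37 between 24 h and 9 h), whereas Derl3 had most of it later (0.21 and 2.36).

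**Figure D4:**
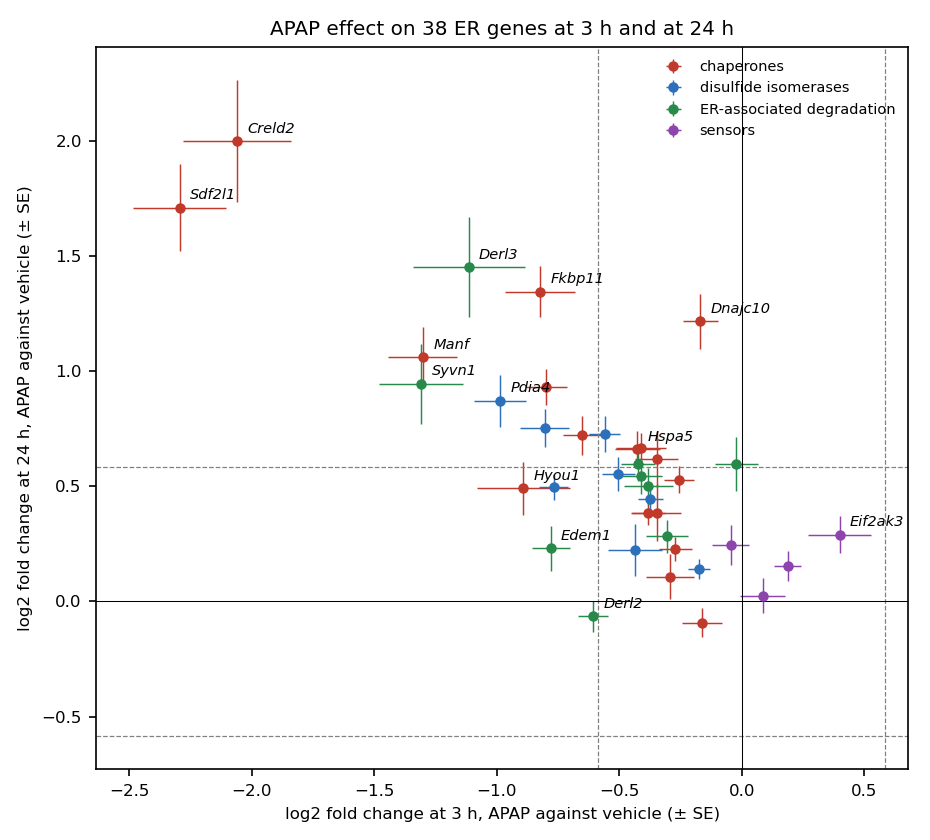
Log2 fold change of APAP against vehicle at 3 h (horizontal axis) and at 24 h (vertical axis) for 38 genes, 1 point per gene with its standard error in both directions (5 mice per group) and dashed lines at 1.5-fold. Most genes lie in the upper left, lower early and higher late, with Sdf2l1 at -2.29 and 1.71 and Creld2 at -2.06 and 1.998 farthest out, and Eif2ak3 lies to the right.

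Other genes of the pathway were taken from lists that exclude the 38. Of 26 other ER folding genes measured, 0 were higher and 3 lower after APAP at 3 h, 0 and 3 at 6 h, 1 and 0 at 9 h, and 1 and 0 at 24 h. Those lower at 3 h were Ero1b, an oxidase that recharges disulfide isomerases (-0.74), Mogs, a trimming glucosidase (-0.68), and Ficd, which AMPylates BiP (-0.99). Ero1a, the related oxidase, was higher at 9 h (0.86) and at 24 h (1.26). Of 16 other degradation genes, none was called at 3 or 6 h. By limma's unadjusted p under 0.05, 1 was higher and 7 lower at 3 h, and 2 were higher and 8 lower at 6 h. In this list 1 was called higher at 9 h, Ube2g2 (0.75), and 1 at 24 h, Selenos (0.62). Of 11 other sensor and processing genes, Creb3l2 was higher (0.62) and Atf6b lower (-0.63) at 6 h. At 24 h Creb3l2 (0.62) and Wfs1 (0.68) were higher. Among all genes 1.68%, 2.29%, 2.49% and 2.86% were higher and 2.34%, 3.03%, 2.05% and 1.82% lower at the 4 times. A count of 1 in 26 genes, as at 9 and 24 h, is close to these shares. By limma's adjusted p under 0.05 alone, 2 of the 26 were higher and 11 lower at 3 h. At 6 h these were 3 and 12, at 9 h 3 and 6, and at 24 h 11 and 2. The shares of all genes were 8.13% and 14.2%, 10.4% and 17%, 13.4% and 15%, and 13.4% and 16.1%. The median log2 difference of the 26 genes was -0.15, -0.23, -0.05 and 0.17 at the 4 times. The medians of these 3 lists and of the 38 genes were not tested against each other.

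Many genes downstream of PERK were higher after APAP at each time. Of 12 genes of the PERK arm and the ATF4-CHOP branch, 7, 9, 7 and 7 were higher after APAP than after vehicle at 3, 6, 9 and 24 h, and 0 were lower. Among all genes 1.68%, 2.29%, 2.49% and 2.86% were higher. Atf3, a stress-induced transcription factor, was higher by 5.46 on the log2 scale at 3 h and by 1.89 at 24 h. Ddit3, which encodes CHOP, was higher by 1.78, 2.93, 1.99 and 1.58 at the 4 times, and Ppp1r15a, the phosphatase subunit that restores translation, by 1.71, 2.38, 2.09 and 1.003. ATF4 and CHOP targets also respond to stresses outside the ER, and the part of PERK in these values was not tested.

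Genes of the fed and fasted state also differed between the groups. Of 10 genes raised by feeding, 3, 6, 7 and 7 were lower after APAP than after vehicle at 3, 6, 9 and 24 h, and 2, 6, 7 and 9 were higher in vehicle than in untreated livers. Among all genes 2.34%, 3.03%, 2.05% and 1.82% were lower after APAP, and 1.14%, 1.71%, 2.03% and 2.31% were higher in vehicle livers. Of 12 genes raised by fasting, 8, 5, 4 and 0 were higher after APAP than after vehicle, and 0, 0, 0 and 2 were lower. Igfbp1 was higher by 4.29 at 3 h. In vehicle livers 7, 8, 10 and 7 of the 12 were lower than in untreated livers. Of all genes 1.68%, 2.29%, 2.49% and 2.86% were higher after APAP, and 0.853%, 1.19%, 1.84% and 2.09% were lower in vehicle livers. The part of the feeding and fasting genes in the early difference of the ER genes was not tested. At 24 h 7 of the fed-state genes were lower after APAP, with Fasn, the fatty acid synthase, at -1.33, and 2 of the fasted-state genes were lower. The part of these genes in the difference of the ER genes at 24 h was not tested either.

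Markers of other cell types were read beside these results. The mean log2 value of 5 markers of infiltrating monocytes and macrophages lay between 9.433 and 10.731 in APAP livers and between 7.429 and 7.670 in vehicle livers at 24 h, and 4 of the 5 were higher. Of 5 neutrophil markers 2 were also higher, as were 2 of 6 markers of Kupffer cells and macrophages and 1 of 4 of endothelium (Lyve1, 1.32), and 1 of 4 of stellate cells was lower (Lrat, -0.69). Among all genes 2.86% were higher and 1.82% lower. Others in these lists went down without being called (limma). They were 1 Kupffer cell marker, 1 neutrophil marker and, beside Lrat, 1 stellate cell marker at an unadjusted p under 0.05. At an adjusted p under 0.05 there was 1 endothelial marker. At 3 h, 2 of the neutrophil markers (S100a8, 0.83, and S100a9, 0.66) and Lyve1 (0.79) were higher after APAP, where 1.68% of all genes were. The other 3 of each of these lists were not called. By limma's adjusted p under 0.05 alone, 3 neutrophil and 2 endothelial markers were higher. Means over the neutrophil list lay between 7.799 and 8.107 in APAP livers and between 7.398 and 7.604 in vehicle livers. The part of these markers in the differences of the ER genes was not tested. Plasma cells also carry much ER, and the mean of 5 B and plasma cell markers lay between 6.428 and 6.596 in APAP livers and between 6.519 and 6.770 in vehicle livers, and none was called (limma, 0 at an unadjusted p under 0.05). As 1 of the processing alternatives, APAP replicates 1 and 3 at 24 h were both left out. Then 14 of the 38 genes were higher than in vehicle livers, Sdf2l1 by 1.56 and Creld2 by 1.82. This omission does not separate the ER genes from the markers. All APAP livers at 24 h lay above all vehicle livers in the mean of the monocyte and macrophage markers.

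Some calls rested on single arrays. At 6 h Derl3 was not called without APAP replicate 3 or vehicle replicate 1, when its limma adjusted p was up to 0.0552, with log2 fold changes between -1.38 and -0.83 over the 10 omissions. Also at 6 h, calls close to the fold minimum were lost for Hsp90b1 without APAP replicate 4 or vehicle replicate 2, for Pdia5 without APAP replicate 4 and for Derl2 without APAP replicate 5. At 3 h Derl2 was not called without replicate 1 of either group. The log2 fold changes of Hsp90b1, Pdia5 and Derl2 stayed between -0.74 and -0.53. At 24 h Hspa13, Edem2 and Herpud1 lost the call in 4, 4 and 5 of 10 omissions, for each gene among them APAP replicate 3 and vehicle replicate 5, with values between 0.54 and 0.71. Against untreated livers, Fkbp11 in vehicle livers at 3 h lost the call in 7 of 10 omissions, and Eif2ak3 in APAP livers at 3 h lost it without APAP replicate 2, where the log2 difference was 0.52. In APAP livers Calr at 24 h (0.585) lost the call in 7 of 10 omissions and Dnajb11 at 9 h in 3. In vehicle livers Dnajc3 at 9 h lost it in 2, and Edem1 and Derl2 at 24 h in 1 each. For the APAP effect at 9 h against 3 h, Hyou1, Sel1l and Hspa13 lost the call in 9, 8 and 4 of 40 omissions. Pdia5 lost it in 5 of 40 for the effect at 24 h against 9 h.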

How the data were processed

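Liver RNA of 45 mice in 9 groups of 5 was measured on 1 array per mouse, and groups were taken from the sample labels. The deposited log2 values came from RMA, run by the authors in affy 1.64.0 under R 3.6.1, with BrainArray version 24 assigning probes to Entrez genes. The versions are those of the submitters' processing notes, which also name limma 3.42.2. RMA quantile normalization gives all arrays 1 distribution, so a shift of all genes together would not be seen. A second table holds 45 value columns that no label ties to a mouse, and only its gene symbols were used.

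Each comparison was fitted with limma 3.58.1 in R 4.3.3 (lmFit, eBayes, two-sided) on its 10 arrays, and the change of the APAP effect with time on 40 arrays. Adjustment was by Benjamini-Hochberg over 18180 genes, with calls at an adjusted p under 0.05 and at least 1.5-fold, and no filter on dim genes. The members, the lists and the rules were chosen with earlier results of these data known. All 39 members are accounted for. Values mouse by mouse are given for Hspa5, Xbp1 and the called members with the largest change after APAP at any time, up to 4 chaperones and up to 3 of each other class. Of other lists up to 3 called genes and 1 not called could be named, and single values of 1 such gene are not reported here. On simulated data of 18180 genes made from these arrays, 99%, 98%, 98% and 95% of genes changed by 1 on the log2 scale were called for APAP against vehicle at 3 h, the same at 24 h, vehicle at 3 h against untreated and the change between 24 h and 3 h, and 100% of those changed by 2. The simulated noise was normal, with 1 spread per gene pooled over the 9 groups. Changes under 1 were not simulated, so these shares do not cover changes near the fold minimum. Alternatives were 1 model over 45 arrays, trend and robust moderation, array weights, leaving out the dimmest 25% of genes, re-centring on the median, an adjusted p under 0.01, no minimum fold, a test against a 1.5-fold change, a replicate block (statmod 1.5.0), and leaving out arrays. The number of arrays limits the precision.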

Additional observations from a re-analysis of the deposited data

Results flagged for a closer look

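In 4 of 117 pairs of gene and group, 1 mouse stood apart from the other 4 of its group by Dixon's test, where chance alone sets apart about 1 in 20. Pdia4 was 9.81 in APAP replicate 2 at 6 h, with the next liver at 9.50. Derl3 was 9.85 in APAP replicate 5 at 9 h, with the next at 9.09. Eif2ak3 was 7.14 in APAP replicate 2 at 3 h, with the next at 6.58, and the call of Eif2ak3 against untreated livers at 3 h was lost without this liver. Fkbp11 was 9.39 in vehicle replicate 1 at 24 h, with the other 4 vehicle livers between 9.59 and 9.67.

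The APAP effect differed between times by the interaction test of limma. It was higher at 9 h than at 3 h for 11 of the 38 genes, at 24 h than at 9 h for 14, and at 24 h than at 3 h for 29. On the log2 scale the difference between 24 h and 3 h was 4.06 for Creld2, 4.002 for Sdf2l1, 2.36 for Manf, 2.17 for Fkbp11 and 1.09 for Hspa5 among the chaperones. It was 1.86 for Pdia4, 1.56 for Pdia6 and 1.26 for Txndc5 among the isomerases, and 2.57 for Derl3, 2.25 for Syvn1 and 1.01 for Edem1 among the degradation genes. The adjusted p values of these 11 genes lay between 8.89e-11 for Txndc5 and 1.32e-05 for Derl3.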

How the results depend on the processing

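With no minimum fold change, 32, 30, 20 and 30 of the 38 genes were called for APAP against vehicle at 3, 6, 9 and 24 h, 27, 25, 27 and 19 for vehicle against untreated, and 9, 9 and 30 for APAP against untreated at 3, 6 and 9 h. The APAP effect then differed for 22 genes between 9 h and 3 h and for 22 between 24 h and 9 h. Tested against a 1.5-fold change, the counts were 3, 0, 0 and 4 for APAP against vehicle (limma, with 10, 11, 1 and 10 genes at an unadjusted p under 0.05 in that test), 3, 1, 4 and 1 for vehicle against untreated, 0, 0, 3 and 12 for APAP against untreated, and 3, 3 and 16 for the effect between 9 h and 3 h, 24 h and 9 h, and 24 h and 3 h. Leaving out 1 array gave 13 to 15, 15 to 19, 2 to 4 and 14 to 18 calls for APAP against vehicle, 13 to 16, 13 to 16, 13 to 14 and 6 to 8 for vehicle against untreated, 0 to 1, 2 to 3, 11 to 14 and 22 to 25 for APAP against untreated, and 8 to 13, 13 to 16 and 26 to 30 for the effects. The 4 calls at 9 h came without APAP replicate 4, the 0 at 3 h without APAP replicate 2, and the 14 at 24 h without APAP replicate 3 or vehicle replicate 5. Replicate numbers did not pair the mice: of 20 same-number pairs, with correlations between -0.266 and 0.398, 3 were over 0.1, and 4 arrays correlated best with their own number. With a replicate block, 14, 17, 2 and 17 genes were called for APAP against vehicle. The other alternatives kept every count within 1.5 times. Over 5313 refits of 190 gene changes, 0 changed direction and 242 lost the call, 137 of them in the test against 1.5-fold and 84 with 1 array left out. Only array weights, re-centring and leaving out arrays alter a difference of group means, so in the other refits the direction could not change. The refitted changes were those already called at 1.5-fold or more, so the 0 is no test of direction. Of 1516 refits of class medians, 7 moved by more than the spread between mice.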
